A study of Mus musculus with 8 samples.

Results

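Described here are genes of the NRF2 antioxidant pathway in mouse haematopoietic precursors made from embryonic stem cells, 12 h and 24 h after doxycycline was added to switch on SOX7. The list held 8 genes (Nqo1, Hmox1, Gclc, Gclm, Txnrd1, Srxn1, Slc7a11 and Nfe2l2), and a gene was measured where the array annotation gave a probe set that named that gene alone. The probe set of each gene was selected by its mean level over the 8 arrays, and no difference between groups entered that choice. This left 6 of the 8 genes, out of 14683 genes named this way on the array, each with 1 probe set. Gclm and Txnrd1 share their probe sets with another gene and are given no value.

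The cells were iSOX7, a derivative of the embryonic stem cell line Ainv18 that carries SOX7 under doxycycline control. FLK1+ cells were kept in liquid blast medium, sorted as CD41+/CD34-, and cultured in 4 groups of 2 samples, with doxycycline for 12 h, without it for 12 h, with it for 24 h and without it for 24 h. All groups carry the same inducible line, and cells given doxycycline without the transgene were not analysed here, so the drug and SOX7 cannot be told apart. Each sample was hybridised to its own Affymetrix array, and values are RMA levels on the log2 scale, on which a difference of 1 is a doubling. The labels do not say whether the 2 samples of a group were cultured separately. The p-values therefore cover the spread among these arrays alone, and how much of that spread is technical was not tested. Part of it followed the replicate number, as the smooth muscle and mesenchyme markers below show.

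NRF2, the protein of Nfe2l2, is a transcription factor that the adaptor KEAP1 holds at a low level by marking it for degradation. Oxidants and electrophiles modify KEAP1, NRF2 then accumulates, pairs with a small MAF protein and binds antioxidant response elements next to genes for glutathione synthesis, thioredoxin-linked repair, quinone reduction and heme breakdown. The factor is therefore controlled mainly as a protein, and its mRNA level is not a readout of its activity. In blood-forming cells the related factor NF-E2 and the heme-sensing repressor BACH1 use the same kind of element.

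Sox7 was 10.96 and 10.82 with doxycycline at 12 h against 7.17 and 6.82 without it, and 10.65 and 10.57 with it at 24 h against 6.96 and 6.84 without it. Itga2b, which encodes CD41, was between 9.27 and 10.89 on the 8 arrays, where array medians ran from 6.40 to 6.61. Cd34 was between 9.18 and 10.78, well above those medians, in cells that had been sorted as CD34-. The sort came before the culture with or without doxycycline, so RNA measured after the culture cannot check it. The second untreated array of 24 h differed from the other arrays in its upper quartile, which was 8.19 where theirs were 8.38 to 8.57. Differences without that array are given below for the 6 genes. Of the list genes called at 24 h or over both times, those that lost a call without it are named below.

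Markers of several cell types moved with doxycycline. The mean of 9 haematopoietic precursor markers was 8.48 to 8.56 with doxycycline at 12 h against 8.99 on both arrays without it. At 24 h it was 8.82 to 8.90 with doxycycline against 8.96 to 9.36 without it. In that list 0 of 9 passed at a single time, and 2 of 9 fell over both times, where 1.81% of all probe sets fell. The mean of 9 erythroid markers was 10.01 to 10.18 with doxycycline at 12 h against 10.97 to 11.09 without it, and 10.35 to 10.43 with it at 24 h against 11.24 to 11.49 without it. In that list 6 of 9 fell at 12 h and 4 of 9 at 24 h, where 0.33% and 0.551% of all probe sets fell. The mean of 9 endothelial markers was 9.36 to 9.79 with doxycycline at 12 h against 7.86 to 8.80 without it, and 9.52 to 9.96 with it at 24 h against 7.33 to 8.59 without it, and 0 of 9 rose at 12 h and 2 of 9 at 24 h, where 0.593% and 0.887% of all probe sets rose. Over both times 6 of the 9 endothelial markers rose and 6 of the 9 erythroid markers fell. Of all probe sets 2.61% rose and 1.81% fell over both times. The mean of 8 macrophage and myeloid markers was 6.15 to 6.32 with doxycycline at 24 h against 6.93 to 7.55 without it, and 4 of the 8 fell. At 12 h that mean was 5.51 to 5.81 with doxycycline against 5.99 to 6.03 without it, and 0 of the 8 passed. The 5 megakaryocyte markers had no call at either time, and their means overlapped at both. Within each replicate number, however, the doxycycline array was the lower at both times. For replicates 1 and 2 the means were 7.29 against 7.90 and 6.54 against 7.02 at 12 h. At 24 h they were 8.13 against 9.20 and 7.05 against 7.40. The mean of 9 smooth muscle and mesenchyme markers followed the replicate number, and was 6.73 to 6.99 for replicate 1 but 8.05 to 8.21 for replicate 2. In bulk RNA, fewer cells of a type and less RNA per cell cannot be told apart, and the part of cell makeup in the results that follow was not tested.

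**Figure D1:**
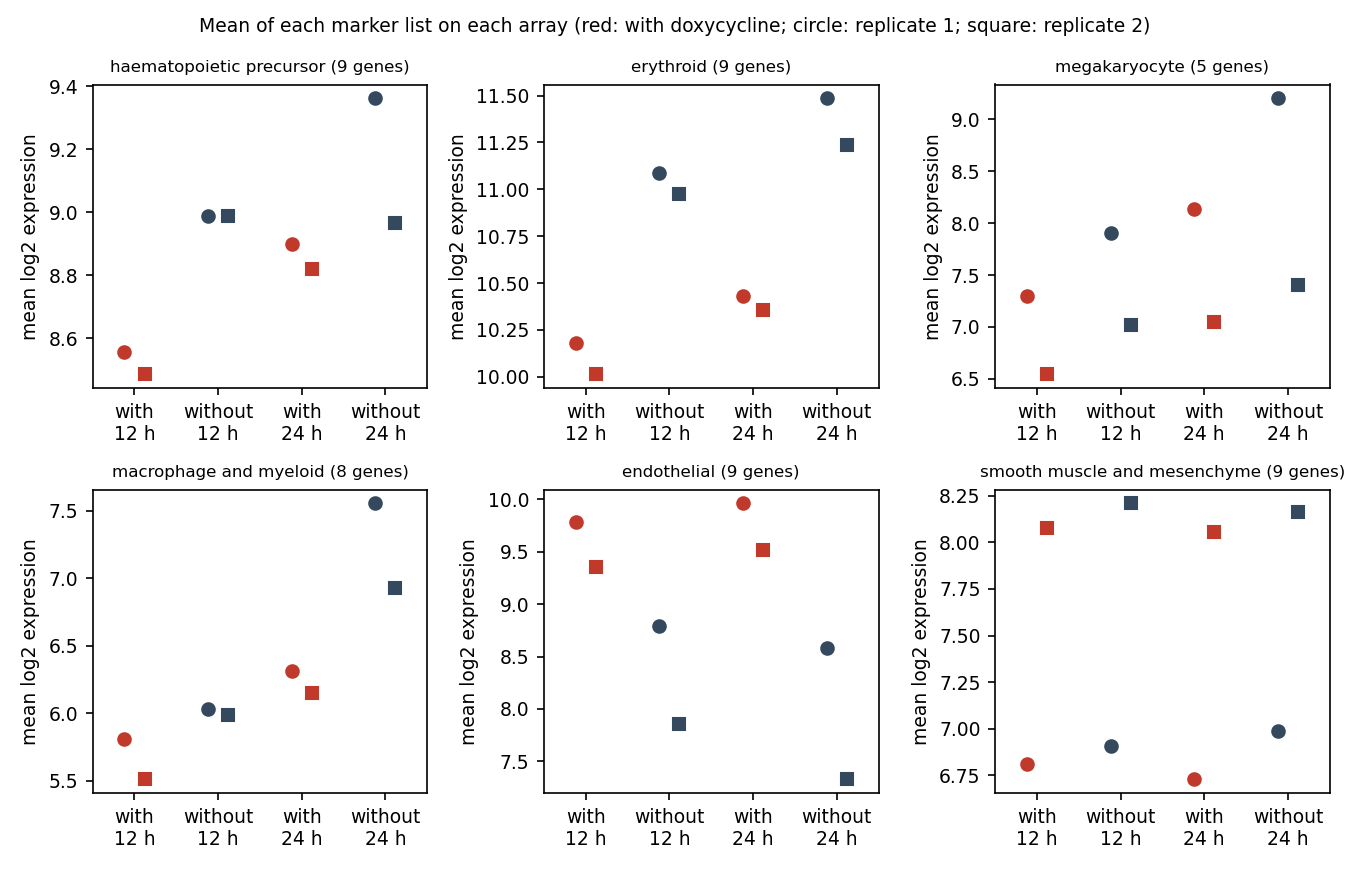
Mean log2 expression (y axis, with its own range in each panel) of 6 lists of cell type markers on each array, by doxycycline and time (x axis). Erythroid means were 10.01 to 10.43 on the 4 arrays with doxycycline and 10.97 to 11.49 on the 4 without it, while smooth muscle and mesenchyme means separated replicate 1 (circles) from replicate 2 (squares).

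The promoters of Nqo1, Srxn1 and Slc7a11 are shown because doxycycline arrays were lower for all 3 genes at both times. Gclc was also lower at both times, but no promoter was available for it. They run from 250 bases before to 50 bases after the start site that RefSeq gives on build GRCm38.p6, 5′ to 3′ on the gene's strand, at chr8:107403156-107403455 (minus strand) for Nqo1, chr2:152105274-152105573 (plus strand) for Srxn1 and chr3:50443564-50443863 (minus strand) for Slc7a11. Capitals mark matches to the core of the antioxidant response element (TGACNNNGC or TGAGNNNGC, either strand) and, in Slc7a11 only, also to the C/EBP-ATF or amino acid response element that ATF4 binds (TGATGCAAN, either strand).
Nqo1: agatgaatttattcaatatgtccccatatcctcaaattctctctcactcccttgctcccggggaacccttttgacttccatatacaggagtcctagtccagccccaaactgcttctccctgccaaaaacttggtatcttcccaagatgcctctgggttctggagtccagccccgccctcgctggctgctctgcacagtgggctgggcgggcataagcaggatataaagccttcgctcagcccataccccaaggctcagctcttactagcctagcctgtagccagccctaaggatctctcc
Srxn1: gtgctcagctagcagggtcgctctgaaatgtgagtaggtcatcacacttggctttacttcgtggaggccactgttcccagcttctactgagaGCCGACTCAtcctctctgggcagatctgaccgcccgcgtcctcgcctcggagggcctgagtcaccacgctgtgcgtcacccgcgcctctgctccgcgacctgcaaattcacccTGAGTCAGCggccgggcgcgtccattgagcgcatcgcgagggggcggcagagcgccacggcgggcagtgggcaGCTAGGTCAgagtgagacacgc
Slc7a11: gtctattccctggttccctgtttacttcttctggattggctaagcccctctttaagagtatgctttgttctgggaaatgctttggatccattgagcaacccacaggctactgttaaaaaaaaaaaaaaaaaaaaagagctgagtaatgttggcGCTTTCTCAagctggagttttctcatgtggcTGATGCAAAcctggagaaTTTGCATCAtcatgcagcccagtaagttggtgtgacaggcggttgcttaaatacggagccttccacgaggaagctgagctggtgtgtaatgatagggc
Srxn1 held 3 matches to the antioxidant core, which start 158 and 45 bases before and 28 bases after the first transcribed base. The middle of these, TGAGTCAGC, also contains the letters of an AP-1 site (TGAGTCA). Slc7a11 held 1 match to that core, 97 bases before the start, followed by 2 matches to the amino acid element at 66 and 48 bases before it. Nqo1 had neither motif in this window. The antioxidant core is short, and 27.8% of 32851 promoters in the RefSeq table held it, while 0.889% held the amino acid element. A promoter was available for 6 of the 8 listed genes, and not for Gclc or Hmox1. Of the promoters not shown, those of Nfe2l2 and Gclm and 1 of those of Txnrd1 also held the antioxidant core. A match describes letters and not a bound site.

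With doxycycline Nqo1 fell at both times, and over both times together Slc7a11 fell and Hmox1 rose. Srxn1 lay lower in each comparison and missed the test, though it passed over both times in some other fits given below, and Gclc and Nfe2l2 did not pass. Each of the 16348 probe sets was tested with limma, and a gene is said to rise or fall where its Benjamini-Hochberg adjusted p was under 0.05. By that rule 1 of 6 genes was called at 12 h and 1 of 6 at 24 h, where 0.924% and 1.44% of all probe sets were called. Over both times 3 of 6 were called, 1 higher and 2 lower, where 4.42% of probe sets were called, 2.61% higher and 1.81% lower. The median difference of the 6 genes over both times was -0.42, against -0.01 for all probe sets. The fall of Nqo1 was known when the list was drawn up, so these counts describe the 6 genes and do not test the pathway.

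**Figure D2:**
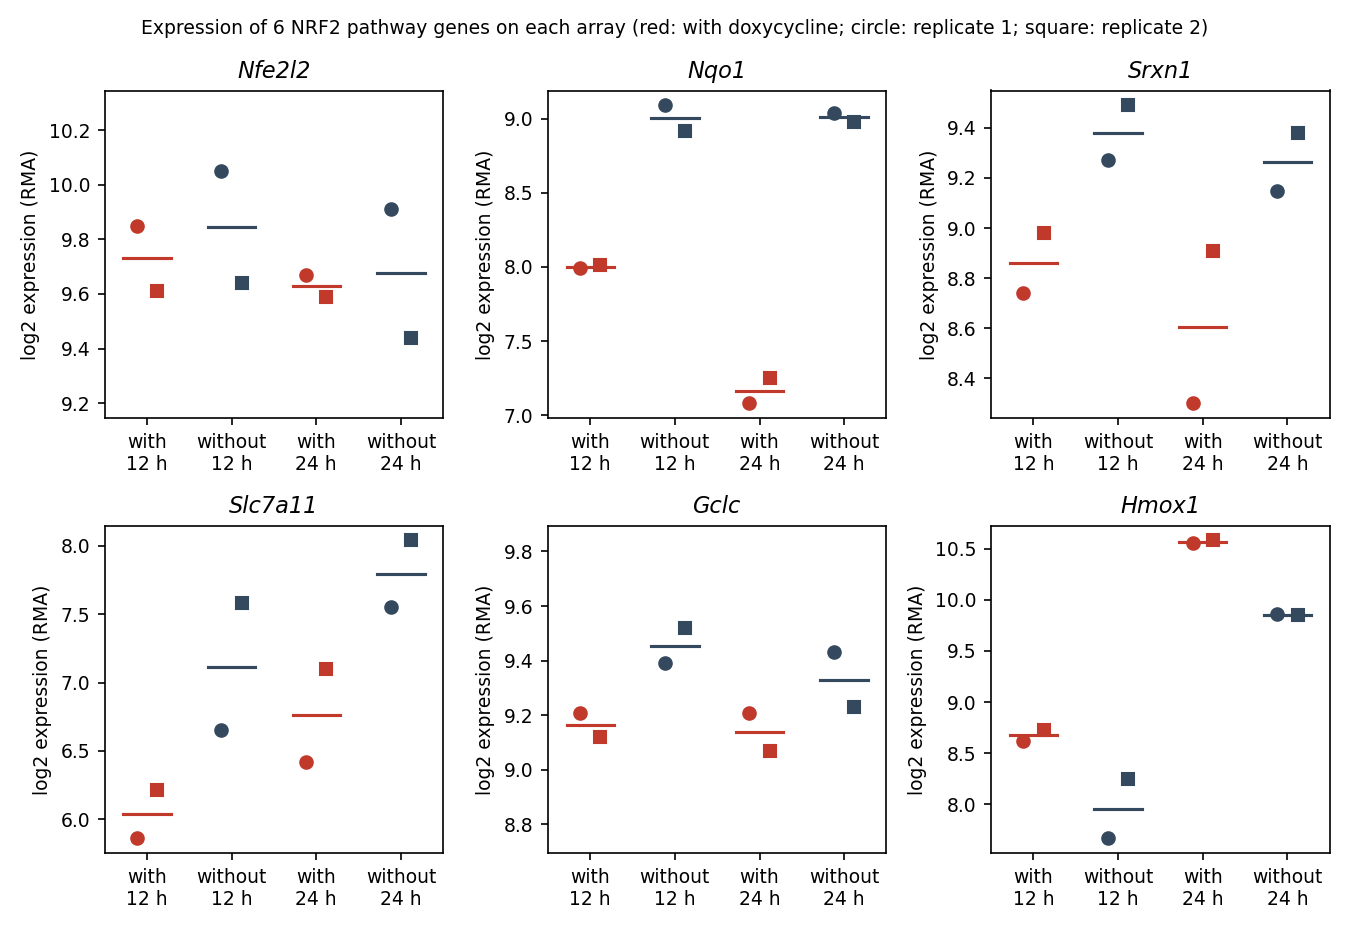
Log2 expression (RMA, y axis, with its own range in each panel) of the 6 genes on each of the 8 arrays, by doxycycline and time (x axis). Bars are group means of 2 arrays. Nqo1 was 7.08 to 8.01 on the arrays with doxycycline and 8.92 to 9.09 without it, and Hmox1 was 9.85 to 10.58 on the 4 arrays at 24 h.

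The transcription factor itself varied little. Nfe2l2 was 9.85 and 9.61 with doxycycline at 12 h against 10.05 and 9.64 without it, and 9.67 and 9.59 with it at 24 h against 9.91 and 9.44 without it. The groups overlapped at both times, and replicate 1 was above replicate 2 in every group. The difference over both times was -0.08 ± 0.14 (95% interval -0.40 to 0.24, adjusted p = 0.892), so a rise or fall of 1 log2 unit lies outside the interval.

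Nqo1, a quinone reductase that turns quinones into hydroquinones and is a standard readout of NRF2 activity, had the largest doxycycline difference of the 6 genes at 24 h and over both times, while at 12 h that of Slc7a11 was larger. It was 7.99 and 8.01 with doxycycline at 12 h against 9.09 and 8.92 without it. At 24 h it was 7.08 and 7.25 with doxycycline against 9.04 and 8.98 without it. The groups did not overlap at either time, and the 2 untreated groups lay within 0.17 of each other across all 4 arrays. The fall was 2.01-fold at 12 h (log2 difference -1.01 ± 0.14, adjusted p = 0.0282) and 3.59-fold at 24 h (-1.85 ± 0.14, adjusted p = 0.00410). Among the probe sets called lower, which made up 0.33% of the array at 12 h and 0.551% at 24 h, it was the only one of the 6 genes. No gene of the list was among those called higher, which made up 0.593% and 0.887%.

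From 12 h to 24 h its level differed by -0.84 ± 0.14 with doxycycline (adjusted p = 0.0940) and by 0.005 ± 0.14 without it (adjusted p = 0.998). The difference between the doxycycline effects at the 2 times was -0.84 ± 0.20, with an unadjusted p = 0.00308 and an adjusted p = 1.00. No probe set on the array passed in that comparison (0%), and 505 of 16348 had an unadjusted p under 0.05, among them 1 of the 6 genes. The order of the groups from low to high was doxycycline at 24 h, doxycycline at 12 h, and then both untreated groups. The treated groups of 24 h and 12 h did not overlap but missed the test, and the untreated groups overlapped. Without the second untreated array at 24 h the 24 h fall was -1.88 ± 0.14 (adjusted p = 0.0285). The call was lost at 24 h without the first doxycycline array of that time (-1.76 ± 0.18, adjusted p = 0.0823), and at 12 h when any of the 4 arrays of 12 h or either doxycycline array of 24 h was left out (adjusted p from 0.0690 to 0.219).

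**Figure D3:**
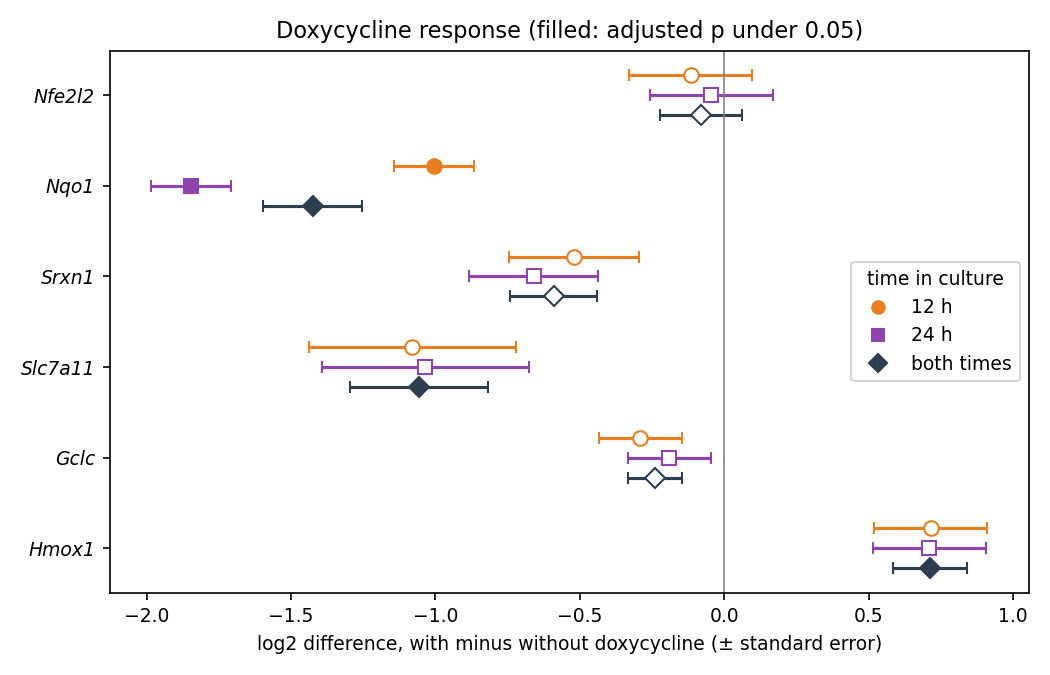
Log2 difference, with minus without doxycycline (x axis), for each of the 6 genes (rows) at 12 h, at 24 h and over both times. Bars are standard errors and filled symbols have an adjusted p under 0.05. All genes but Hmox1 lie left of 0 at all 3 estimates, and Hmox1 lies right of 0 at 0.71 to 0.72.

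Srxn1 encodes sulfiredoxin, which repairs peroxiredoxins that have been inactivated by peroxide. It was 8.74 and 8.98 with doxycycline at 12 h against 9.27 and 9.49 without it, and 8.30 and 8.91 with it at 24 h against 9.15 and 9.38 without it. Doxycycline arrays were the lower at both times, and replicate 2 was above replicate 1 in every group by 0.22 to 0.61. The difference over both times was -0.59 ± 0.15 (1.51-fold, adjusted p = 0.0729), and with samples paired by replicate number it was -0.59 ± 0.097 (adjusted p = 0.0113). It also passed when the dimmest 33.3% of probe sets were left out (adjusted p = 0.0432). With that block 4 of the 6 genes were called over both times, where 7.53% of probe sets were.

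Glutathione synthesis is represented by a transporter and an enzyme. Slc7a11 is the cystine importer xCT, which supplies the cysteine for glutathione and is induced by ATF4 as well as by NRF2. It was 5.86 and 6.21 with doxycycline at 12 h against 6.65 and 7.58 without it, and 6.42 and 7.10 with it at 24 h against 7.55 and 8.04 without it. Treated arrays lay below untreated ones of the same time, while the second treated array at 24 h was above the first untreated one at 12 h. The fall over both times was 2.08-fold (-1.06 ± 0.24, adjusted p = 0.0464; -1.06 ± 0.11 and adjusted p = 0.00163 with the replicate block). At a single time it was -1.08 ± 0.36 at 12 h (adjusted p = 0.353) or -1.04 ± 0.36 at 24 h (adjusted p = 0.295). With the replicate block it passed at 12 h (adjusted p = 0.0211) and at 24 h (adjusted p = 0.0197). The wide error without the block goes with the replicate number, since replicate 2 exceeded replicate 1 by 0.35 to 0.93 in every group. Without the second untreated array at 24 h the value over both times was -0.96 ± 0.27 (adjusted p = 0.109), and of the 8 fits that each left out 1 array the call held in 1, without the first untreated array at 12 h (-1.24 ± 0.22, adjusted p = 0.0297). In the other fits adjusted p was 0.0576 to 0.141.

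Gclc is the catalytic subunit of glutamate-cysteine ligase, the rate-limiting enzyme of glutathione synthesis. It was 9.21 and 9.12 with doxycycline at 12 h against 9.39 and 9.52 without it, and 9.21 and 9.07 with it at 24 h against 9.43 and 9.23 without it. Doxycycline arrays were lower at both times by a small amount, -0.24 ± 0.094 over both times (95% interval -0.46 to -0.025, adjusted p = 0.258).

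Hmox1 was the member that rose. It encodes heme oxygenase 1, which opens the heme ring to give biliverdin, iron and carbon monoxide, and which BACH1 represses until heme displaces it. It was 8.62 and 8.73 with doxycycline at 12 h against 7.67 and 8.25 without it, and 10.55 and 10.58 with it at 24 h against 9.86 and 9.85 without it. The 4 groups did not overlap and stood, from high to low, in the order treated at 24 h, untreated at 24 h, treated at 12 h and untreated at 12 h. With doxycycline it rose 1.64-fold over both times (0.71 ± 0.13, adjusted p = 0.0186), and the rise did not pass at 12 h or 24 h alone (0.72 ± 0.20 and 0.71 ± 0.20, adjusted p = 0.217 and 0.171). The call over both times was lost without any single doxycycline array (adjusted p from 0.0531 to 0.0663) and kept without the second untreated array at 24 h (0.71 ± 0.14, adjusted p = 0.0452).

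Hmox1 also rose with time in culture. From 12 h to 24 h it rose 3.71-fold with doxycycline (1.89 ± 0.20, adjusted p = 0.0211) and 3.72-fold without it (1.90 ± 0.20, adjusted p = 0.0224). It was the only one of the 6 genes called in either comparison, where 0.184% and 0.147% of probe sets were called. The doxycycline effects at the 2 times differed by -0.005 ± 0.28 (95% interval -0.65 to 0.64). Without the second untreated array at 24 h both calls were lost (1.89, adjusted p = 0.0619 with doxycycline, and 1.90, adjusted p = 0.0746 without it). The call with doxycycline held only when an untreated array of 12 h was left out, and the call without doxycycline only when a treated array of 12 h or the second untreated array of 12 h was. Slc7a11 also lay higher at 24 h, by 0.73 ± 0.36 with doxycycline and 0.68 ± 0.36 without it, and did not pass (adjusted p = 0.824 and 0.758). Without the second untreated array of 24 h the doxycycline differences at 24 h were -0.79 for Slc7a11, -0.55 for Srxn1, 0.71 for Hmox1, -0.29 for Gclc and -0.28 for Nfe2l2 (adjusted p from 0.260 to 0.543). Over both times Nqo1 was then at -1.35 ± 0.19 (adjusted p = 0.0138), and Srxn1, Gclc and Nfe2l2 at -0.53, -0.29 and -0.18 (adjusted p = 0.130, 0.108 and 0.463).

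All treated arrays lay below all untreated arrays of the same time, at 12 h and again at 24 h, for 4 of the 6 genes (Nqo1, Srxn1, Slc7a11 and Gclc), as they did for 6.61% of all probe sets. They lay above them for 1 of 6, Hmox1, as for 8.28% of probe sets. Over the 8 arrays Nqo1 correlated with Srxn1 at r = 0.861, with Gclc at r = 0.752 and with Slc7a11 at r = 0.539, and Hmox1 with Slc7a11 at r = 0.248. These values describe 8 arrays that share treatment and time, and they carry no test.

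Genes whose pattern over the 8 arrays was most like each called gene were looked up among 14682 others. Nearest to Nqo1 were Get4 (r = 0.982), which acts in membrane insertion of tail-anchored proteins, the transcription factor Ikzf1 (r = 0.968) and Plgrkt (r = 0.966), a plasminogen receptor. Their doxycycline differences over both times were -0.22 for Get4, -0.53 for Ikzf1 and -0.57 for Plgrkt. Nearest to Slc7a11 were the lysosomal enzyme gene Gusb (r = 0.979), the heme transporter gene Slc48a1 (r = 0.968) and Rab44 (r = 0.964), with differences of -0.41, -0.42 and -0.30. Nearest to Hmox1 were Ero1a (r = 0.984), an oxidase of the endoplasmic reticulum, Tmem45a (r = 0.980) and Plekha2 (r = 0.976). From 12 h to 24 h Ero1a differed by 1.51 with doxycycline and 1.18 without it, Tmem45a by 1.19 and 1.19, and Plekha2 by 2.32 and 2.50. These genes were picked for following Nqo1, Slc7a11 or Hmox1 on the same arrays, so their differences restate that choice and carry no test.

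Other genes of the pathway were taken from 9 lists that cover 126 different measured genes. Over both times 3 of the 126 rose and 10 fell with doxycycline, and their median was -0.05. Of all probe sets 2.61% rose and 1.81% fell, and the list counts that follow are to be read against these shares. Without the second untreated array of 24 h, a fit chosen after seeing the data, 3 rose and 6 fell. Ggct, Mgst3, Ncf1 and Ncf4 then lost their calls over both times (adjusted p = 0.0765, 0.0856, 0.0553 and 0.0676), and Gpx1 and Cbr3 theirs at 24 h (adjusted p = 0.0691 and 0.0968). Among 32 genes of glutathione synthesis and use 1 rose and 5 fell (median -0.03), and 3 rose and 6 fell with the replicate block. Glrx, a glutaredoxin that reduces glutathionylated proteins, fell (-1.07 ± 0.14), as did the transferase Gstt1 (-1.16 ± 0.19) and the peroxidase Gpx1 (-0.71 ± 0.13; adjusted p = 0.00479, 0.0136 and 0.0175). Ggct and Mgst3 fell (-0.88 ± 0.18 and -0.88 ± 0.19, adjusted p = 0.0336 and 0.0375). Abcc1, a pump for glutathione conjugates, rose by 0.86 ± 0.13 (adjusted p = 0.00825). The transferase gene Gstm7 differed by 1.29 ± 0.34 (adjusted p = 0.0802) and Chac2 by -0.39 ± 0.15 (adjusted p = 0.263), and both passed with the block (adjusted p = 0.00771 and 0.0373). At a single time Glrx fell at 12 h (-1.26 ± 0.19, adjusted p = 0.0363), and Gstt1 and Gpx1 fell at 24 h (-1.48 ± 0.24 and -0.93 ± 0.15, adjusted p = 0.0359 and 0.0377).

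Of 22 other NRF2 target genes 2 rose and 2 fell over both times (median 0.006). Ptgr1, a reductase of prostaglandins and reactive aldehydes, was 7.75 and 7.65 with doxycycline at 12 h against 7.04 and 6.90 without it, and 7.69 and 7.61 with it at 24 h against 6.98 and 6.92 without it. The groups did not overlap, and it rose by 0.72 ± 0.085 (adjusted p = 0.00328). Aldh1a1, which makes retinoic acid, rose by 1.28 ± 0.23 (adjusted p = 0.0189), with 1.86 ± 0.17 at 12 h (adjusted p = 0.00831) and 0.69 ± 0.17 at 24 h (adjusted p = 0.125). Blvrb, a biliverdin reductase that is abundant in red cells, and Fech, which makes heme by inserting iron into protoporphyrin, fell (-0.84 ± 0.16 and -0.81 ± 0.16, adjusted p = 0.0236 and 0.0246). Both, like Gpx1, are high in red cell precursors, and the erythroid markers above were lower on the same arrays; their part in these falls was not tested. The carbonyl reductase gene Cbr3 was 3.73 and 3.74 with doxycycline at 24 h against 4.60 and 4.74 without it, a fall of 0.94 ± 0.16 (adjusted p = 0.0377), and differed by 0.23 ± 0.16 at 12 h (adjusted p = 0.849).

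Among 16 regulators and partners of NRF2, Nfe2 fell over both times and no other passed. Nfe2 encodes the NF-E2 subunit that shares small MAF partners with NRF2 and drives erythroid and megakaryocyte genes, and it fell by 0.96 ± 0.16 (adjusted p = 0.0142). Mafk, Gsk3b and Bach2 differed by -0.35 ± 0.10, 0.31 ± 0.10 and 0.50 ± 0.16 (adjusted p = 0.111, 0.162 and 0.163). Keap1, the inhibitor, and Bach1, the repressor, were added after their values had been seen and differed by -0.03 ± 0.087 and -0.19 ± 0.090 (adjusted p = 0.935 and 0.381). Of 8 superoxide and peroxide enzymes, 2 subunits of the phagocyte oxidase fell over both times, Ncf1 (-1.10 ± 0.20) and Ncf4 (-0.94 ± 0.21; adjusted p = 0.0181 and 0.0421). Ncf1 is also among the myeloid markers above. At 24 h Ncf1 fell by 1.57 ± 0.17 (adjusted p = 0.0116), and Cat and Cybb differed over both times by -0.19 ± 0.11 and -0.51 ± 0.34 (adjusted p = 0.489 and 0.590). From 12 h to 24 h Ncf1 rose by 1.73 ± 0.17 without doxycycline (adjusted p = 0.0223).

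Around Hmox1, 7 genes of heme breakdown and iron handling had 1 that fell, Blvrb, and 0 that rose. The heme transporter gene Slc48a1 and the iron exporter gene Slc40a1 differed by -0.42 ± 0.098 and 0.79 ± 0.21 (adjusted p = 0.0538 and 0.0906), and passed with samples paired by replicate number (adjusted p = 0.0168 and 0.00311). Blvra differed by -0.28 ± 0.11 (adjusted p = 0.233).

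The remaining lists had no member that passed limma over both times, and they were the thioredoxin and peroxiredoxin system (0 of 14, with 3 at an unadjusted p under 0.05), NADPH supply (0 of 6, with 2), aryl hydrocarbon receptor genes (0 of 7, with 0) and integrated stress response genes (0 of 20, with 6). Of all 16348 probe sets, 2548 had an unadjusted p under 0.05 in limma over both times. In the thioredoxin list Txn2, Prdx4, Prdx2 and Sesn3 differed by -0.22 ± 0.085, 0.23 ± 0.094, -0.31 ± 0.13 and 0.26 ± 0.13 (adjusted p from 0.259 to 0.414). Taldo1, Idh1, Idh2 and Nadk of the NADPH supply list differed by -0.48 ± 0.15, 0.60 ± 0.19, 0.25 ± 0.11 and -0.15 ± 0.097 (adjusted p from 0.136 to 0.584), and Idh1 passed with the replicate block (adjusted p = 0.00844). The receptor-regulated Cyp1b1, Cyp1a1, Cyp1a2 and Tiparp, whose battery includes Nqo1, differed by -0.24 ± 0.14, 0.36 ± 0.21, 0.24 ± 0.14 and -0.07 ± 0.11 (adjusted p from 0.501 to 0.887). The stress response genes Cebpb, Trib3, Chac1 and Ddit3 differed by -0.50 ± 0.13, -0.55 ± 0.15, 0.38 ± 0.10 and -0.54 ± 0.20 (adjusted p from 0.0816 to 0.225). Cebpb and Chac1 passed with the block (adjusted p = 0.0197 and 0.0379). Over time in culture Ddit4 and Vldlr of that list rose, by 2.24 ± 0.17 and 2.47 ± 0.15 with doxycycline (adjusted p = 0.00736 and 0.00482) and by 1.62 ± 0.17 and 1.76 ± 0.15 without it (adjusted p = 0.0244 and 0.0223). Without the second untreated array of 24 h the rise of Ddit4 without doxycycline was not called (1.74, adjusted p = 0.0531). These 2 were looked up after their values had been seen.

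**Figure D4:**
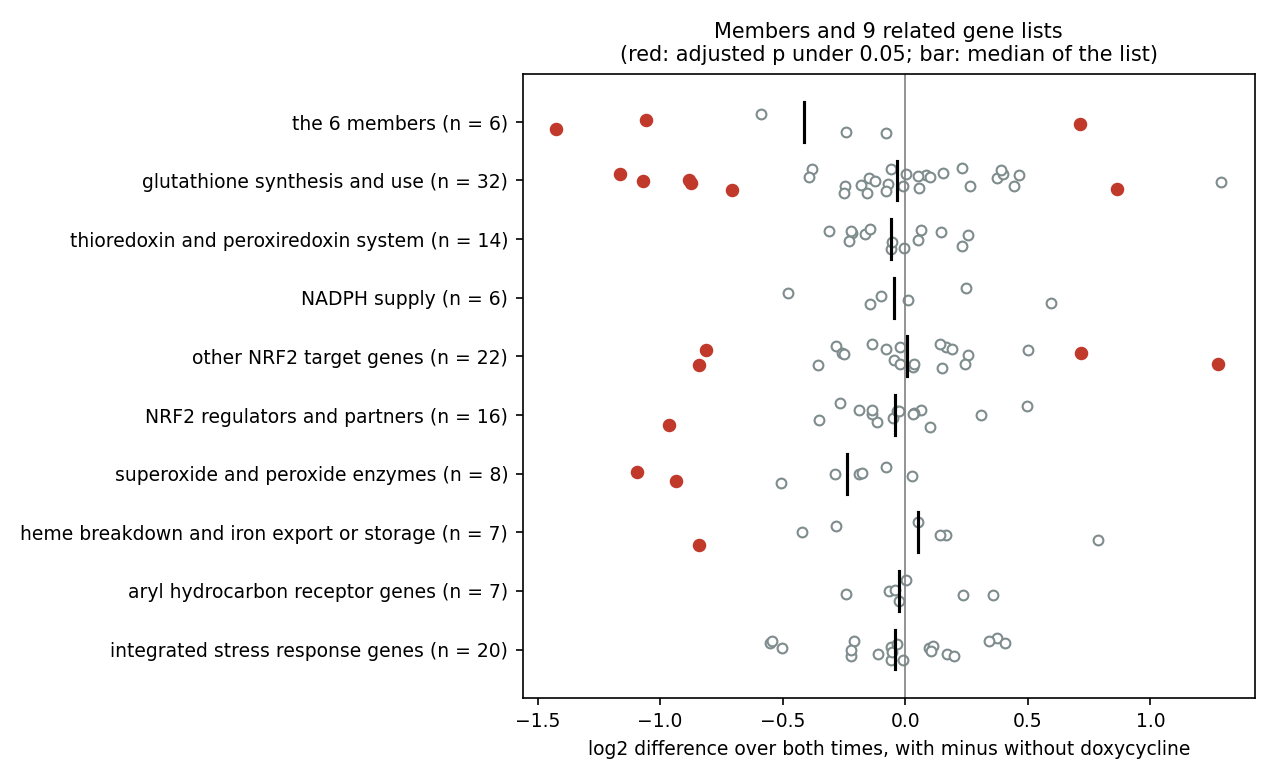
Log2 difference over both times, with minus without doxycycline (x axis), of the 6 genes and of 9 related lists (rows), each point a gene. Red points have an adjusted p under 0.05 and black bars are medians, which lie at -0.42 for the 6 genes and between -0.24 and 0.05 for the lists.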

How the data were processed

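Total RNA of 8 samples was measured on 8 arrays. The deposited values are log2 expression values, made by the authors with RMA in Affymetrix Power Tools, per the submitters' processing notes, which give no versions. A genome build, further centring and filters are not given in the sources used here. Scanner files were not used, which leaves the background level unknown. Precision is limited by having 8 arrays. Groups and replicate numbers were read from the sample titles.

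Of 16348 probe sets, 14785 had 1 gene symbol in the platform annotation, 950 had several and 613 had none. Limma 3.58.1 (lmFit, eBayes) in R 4.3.3 was run on all probe sets, with 1 mean per group (4 residual degrees of freedom) for single times and with terms for doxycycline and time (5 residual degrees of freedom) for both times. Benjamini-Hochberg adjustment ran over all 16348, and errors are standard errors. The pipeline was tested on simulated data.

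The members, lists and tests were chosen with earlier results of these data known. Named genes were the members, up to 4 genes per list by smallest p over both times, genes called at 12 h or 24 h, and the 3 most correlated genes per called member. Other genes called over both times (with or without the block), or over culture time in the lists, were added after their values had been seen. Members of lists with no probe set of their own are not reported.

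Every group has a replicate 1 and 2 in its titles. Samples of the same number deviated together from their group means (r between 0.298 and 0.428 for each pair of groups), so the numbers were taken to pair the 4 sample pairs of the comparison over both times, and the blocked value is printed where it changed the call. The alternatives were a further quantile normalization, centring on array medians, an intensity trend, leaving out the dimmest 33.3% of probe sets, the replicate block, separate fits of the groups in a comparison, and leave-one-out fits.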

Additional observations from a re-analysis of the deposited data

How the results depend on the processing

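Over both times, 3 of the 6 genes were called; 4 were with the replicate block and 4 without the dimmest 33.3% of probe sets, 2 after quantile normalization, and 1 to 3 with an array left out. With the number as a block, 2 genes (Nqo1 and Slc7a11) were called at 12 h and 2 (the same genes) at 24 h, against 1 at each time. Fitting only the groups compared gave 0 called at 12 h (Nqo1, adjusted p = 0.0916), 0 between 24 h and 12 h with doxycycline and 0 without it. With an array left out, 0 to 1 genes were called at 12 h, at 24 h and in each comparison of times. Some differences of genes that were not called changed sign when arrays were left out. With doxycycline against none, Nqo1, Srxn1, Slc7a11, Gclc and Hmox1 kept their sign at each time and over both times. Nfe2l2 ran from -0.32 to 0.09 at 12 h, -0.28 to 0.19 at 24 h, -0.18 to 0.009 over both times, -0.17 to 0.31 between the doxycycline effects, -0.41 to 0.065 over time without doxycycline and -0.22 to 0.02 with it. Between the effects Srxn1 ran from -0.45 to 0.17, Slc7a11 from -0.42 to 0.51 and Hmox1 from -0.30 to 0.29. Over time, Nqo1 without doxycycline ran from -0.08 to 0.09 (and -0.0125 with arrays centred on their medians), and with doxycycline Srxn1 ran from -0.56 to 0.05 and Gclc from -0.095 to 0.045. The cause was not tested. Over all probe sets, calls at 12 h, 24 h and both times numbered 151, 235 and 723; 467, 677 and 1231 with the block, 241 and 415 at single times after quantile normalization, 239 and 367 without the dimmest 33.3%, 0 and 126 with only the groups compared, and 7 to 201, 4 to 297 and 377 to 730 with an array left out. Over both times 1016 probe sets were called after quantile normalization, and 895 of those kept when the dimmest 33.3% were left out. A choice between probe sets had no alternative, since each gene had 1. With 2 arrays a group, small differences are not detectable.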
